A study of Saccharomyces cerevisiae with 58 samples.

Results

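The amino acid biosynthesis genes described here are the 49 Saccharomyces cerevisiae genes whose symbols on the array platform consist of ARG, HIS, LEU, LYS, ILV, TRP or ARO and a number, out of 5449 genes measured. They were chosen by name, not by any measured value, though with earlier results of these data known. LEU2, HIS2 and ARG4 appear as disruption markers in the genotype of the mutant and were set apart, which leaves 46 genes. TRP1, a further marker, was not analysed here. By role, the 46 are 5 arginine, 6 histidine, 8 lysine, 4 tryptophan, 5 isoleucine and valine and 4 leucine genes, 5 genes of the shared aromatic pathway, 3 genes of aromatic transamination and breakdown, and 6 regulators. The names also take in genes that make no amino acid, such as LEU5, a mitochondrial carrier involved in coenzyme A supply, and ARG82, an inositol phosphate kinase.

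The study followed RNA over time in B-cyclin mutant and wild-type cells to ask how much of cell cycle transcription continues without B-type cyclins. The mutant was BF264-15DU MATa with 6 disruptions, of CLB1 by URA3, of CLB2 by LEU2, of CLB3 by TRP1, of CLB4 by HIS2, of CLB5 by ARG4 and of CLB6 by APE1. It also carried GAL1-CLB1:LEU2, in which a promoter that galactose switches on and glucose represses drives CLB1. The wild type was BF264-15DU MATa with bar1, an allele that the mutant's label does not list. In both strains G1 cells were collected by elutriation, which separates cells by size, and were followed in dextrose medium with 1 M sorbitol at 30 degrees, in 2 cultures per strain (15 mutant and 14 wild-type arrays per culture). All values below are log2(intensity + 1) of a gene's probe set on a single array, or means of these, and differences are mutant minus wild type on that scale.

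Yeast with these pathways intact makes every amino acid it needs. Starvation for amino acids or a block in their synthesis raises translation of GCN4, whose product activates genes of many of these pathways together, a response known as general amino acid control. Single pathways have regulators of their own: Arg80, Arg81 and Mcm1 act on arginine genes, Lys14 on lysine genes, Leu3 on leucine and branched-chain genes, and Aro80 on the genes that break down aromatic amino acids. The cultures grew in rich medium, which supplies amino acids.

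The arrays shared a common scale, with mean intensities from 2067 to 2121 and a median over genes between 10.79 and 10.92 on the log2 scale. Neighbouring arrays of a culture correlated at 0.976 or more from 62 min on, while the lowest correlation before that was 0.899 to 0.940 in the 4 cultures. Background was taken as 9.06, the 95th percentile of named probe sets outside the yeast annotation, and all 49 genes lay above it on average, 46 of them on every array. CLB2, CLB3 and CLB4 lay below background on 30 of 30 mutant arrays, while the probe sets of CLB1, CLB5 and CLB6 lay above it on all of them, and the positions of probes relative to the disruptions were not analysed here. BAR1 averaged 10.59 in the mutant and 8.19 in wild-type cells. Of the genes specific to a cells, MFA1 averaged 12.17 in the mutant and 13.30 in wild-type cells, and of the 7 in the list 5 were lower in the mutant and BAR1 was higher by limma. The 4 genes specific to alpha cells had adjusted p-values of 0.0531 or more over the course. STE3 averaged 8.19 in the mutant and 8.04 in wild-type cells and MF(ALPHA)1 averaged 8.63 in the mutant and 8.94 in wild-type cells, below background in both strains. MF(ALPHA)2, at 9.48 in the mutant and 9.62 in wild-type cells, and SAG1, at 10.78 in the mutant and 11.12 in wild-type cells, lay above it.

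The level of each gene over the whole course was compared first, from the mean of each culture over the times that both strains had. Of the 46 genes, 8 differed in level, against 10.8% of all genes. ARO10, ARG7, LYS1, ARO9 and ARG2 were higher in the mutant (5 genes, against 5.69% of all genes), and LEU1, LEU4 and ARG80 were lower (3 genes, against 5.07%; limma, Benjamini-Hochberg adjusted p under 0.05 over 5449 genes). At an unadjusted p under 0.05, 22 of the 46 differed, against 27.7% of all genes. The median difference was 0.10 over the 46 genes and 0.02 over all genes. The count was 3 with wild-type culture 1 left out and 5 with wild-type culture 2 left out, and with mutant culture 2 left out it was 17. The call was lost for ARO9 under quantile normalization (adjusted p 0.0666) and for ARG80 with a pseudocount of 50 (0.0508). With the sampling grid as a block it was lost for ARG2, ARG80 and ARO9 (0.0713, 0.075 and 0.0738). In a fit over arrays with culture as a random block it was lost for ARO10, ARO9 and LYS1 (0.211, 0.269 and 0.215). Among the calls lost with wild-type culture 1 left out were those of ARG7, LEU4 and LYS1.

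The strains were then compared within 5 windows of time, since the differences were not constant. In whole cultures, a change in the share of cells at some stage and a change of RNA per cell cannot be told apart. In the first hour, from 30 to 54 min, 0 of the 46 genes passed in limma's test, against 0.11% of all genes. The lowest adjusted p among them was 0.561, although 4 were below 0.05 before adjustment, against 6.5% of all genes. The 2 cultures of a strain were sampled at different times, so their spread here includes change over time. ARG1 differed by -1.94 between the cultures sampled from 30 min and by -0.14 between those sampled from 38 min. For ARO10 these differences were -0.12 and -2.08. The absence of calls therefore does not show that the strains agreed. From 62 to 102 min 1 of 46 was called, against 0.844% of all genes. From 110 to 150 min 5 were called, against 8.7% of all genes, 3 higher (4.59% of all genes) and 2 lower (4.11%) in the mutant. From 158 to 190 min 20 were called, which is 43.5% of the 46 against 23.3% of all genes, with 15 higher (13.6% of all genes) and 5 lower (9.73%) in the mutant. From 206 to 262 min 25 were called, which is 54.3% against 32.9% of all genes, with 18 higher (18.3% of all genes) and 7 lower (14.6%). The median difference was 0.17 over the 46 and 0.01 over all genes. The count of the last window was 4 with wild-type culture 1 left out and 5 with wild-type culture 2 left out, and 28 and 30 when a mutant culture was left out. From 158 to 190 min it was 8 when either wild-type culture was left out, and from 110 to 150 min it was 2 in those cases and 11 when mutant culture 2 was.

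**Figure D1:**
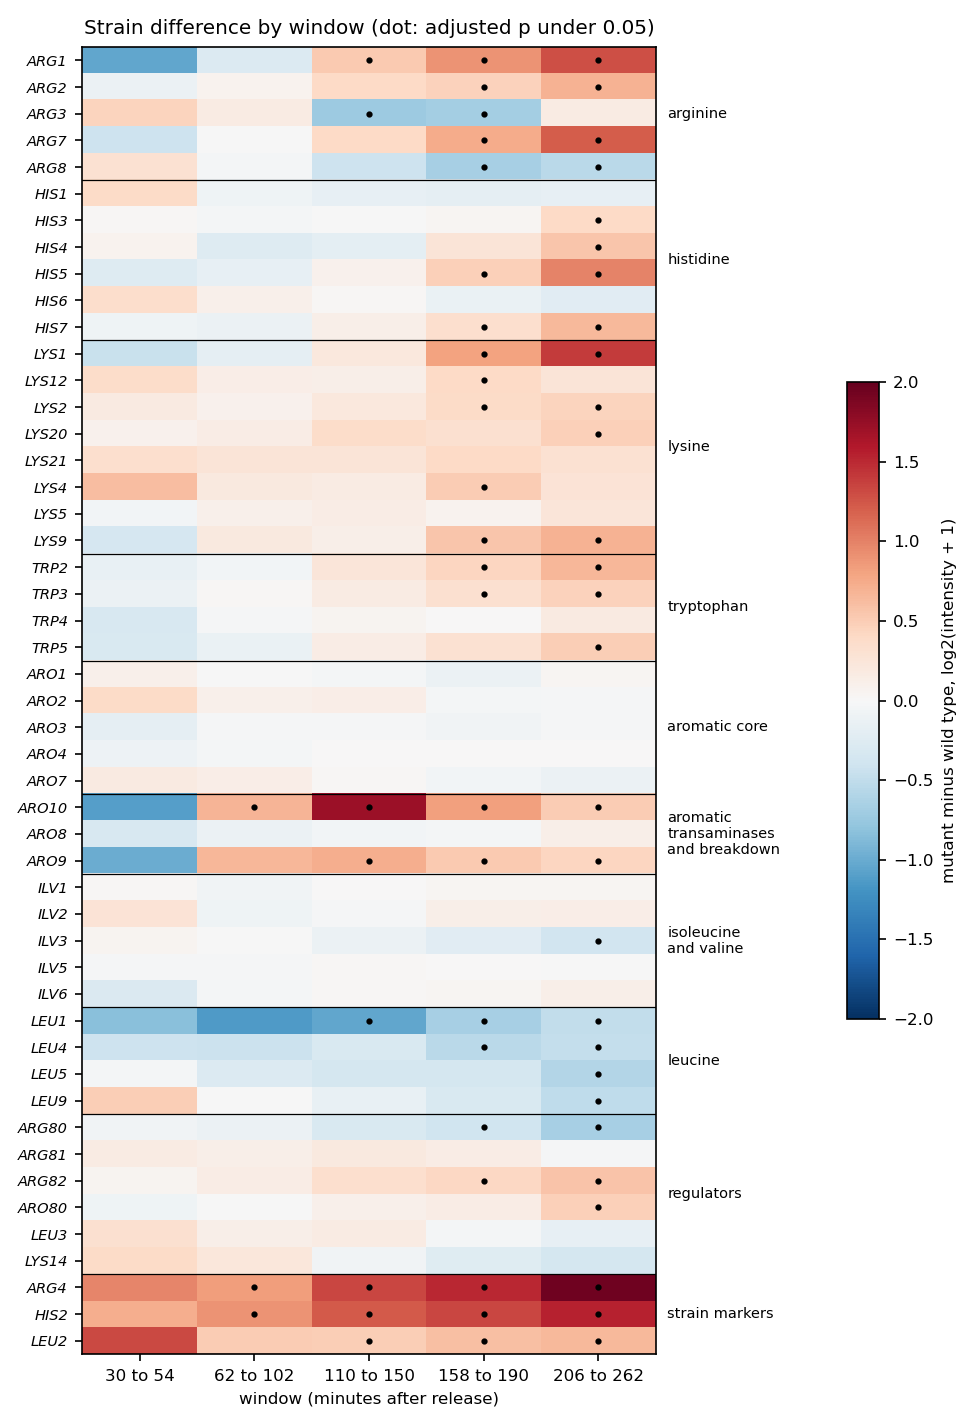
Difference between mutant and wild type (colour, log2 scale, red higher in the mutant) for each of the 49 genes (rows, grouped by role) in the 5 windows (columns, minutes after release), from the means of 2 cultures per strain. Dots mark an adjusted p under 0.05. Dots are absent from 30 to 54 min and stand in 25 of the 46 rows outside the strain markers from 206 to 262 min, in red for 3 arginine, 4 histidine, 4 lysine and 3 tryptophan genes and for ARO9, ARO10, ARO80 and ARG82, and in blue for the 4 leucine genes and for ILV3, ARG8 and ARG80.

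The arginine genes divided in the mutant. In the last window, from 206 to 262 min, ARG1, ARG7 and ARG2 were higher, ARG8 was lower, and ARG3 did not pass. ARG1, argininosuccinate synthetase, averaged 14.07 and 13.90 in the mutant cultures and 12.60 and 12.79 in the wild-type cultures, a difference of 1.29 ± 0.11 (SE, n = 2 cultures per strain), or 2.44-fold, with an adjusted p of 0.00152. The 8 mutant arrays of that window lay between 13.71 and 14.23 and the 8 wild-type arrays between 12.37 and 13.04, so the strains did not overlap. ARG1 was low in the mutant at first, at 9.71 at 30 min, and its highest value was 14.23 at 262 min, with a median of 13.21 over 30 arrays. In the wild type it lay between 10.58 at 54 min and 13.04 at 262 min, with a median of 12.44 over 28 arrays. In the first window the difference had the opposite sign, -1.04, with an adjusted p of 0.71.

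ARG7, the ornithine acetyltransferase of the mitochondrial part of the pathway, climbed through most of the mutant course. It averaged 12.61 and 12.51 in the mutant cultures from 206 to 262 min and 11.24 and 11.45 in the wild-type cultures, a difference of 1.21 ± 0.11 (adjusted p 0.00158). All 8 mutant arrays, from 12.28 to 12.84, lay above the 8 wild-type arrays, from 11.18 to 11.49. ARG2, acetylglutamate synthase, which performs the first step, differed by 0.70 in that window, or 1.62-fold. As a level over all times, ARG7 differed by 0.47 (adjusted p 0.0161) and ARG2 by 0.35 (0.0485), while ARG1 missed the threshold at 0.40 (0.0529).

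ARG8, acetylornithine aminotransferase, ran the other way. Its culture means from 206 to 262 min were 11.34 and 11.47 in the mutant and 11.92 and 11.97 in wild-type cells, a difference of -0.53 ± 0.10 (adjusted p 0.0114), and the arrays of the strains did not overlap. ARG3, ornithine carbamoyltransferase, was called in the middle of the course. It was lower in the mutant by 0.73 from 110 to 150 min (adjusted p 0.00668), with a mean of 11.26 in the mutant and 11.99 in wild-type cells. That call was lost when either wild-type culture was left out (differences -0.75 without culture 1 and -0.71 without culture 2). From 158 to 190 min ARG3 was lower by 0.68 (0.0203). Late in the course, from 206 to 262 min, its difference was 0.17 (0.354), and mutant arrays from 11.96 to 12.78 overlapped wild-type arrays from 11.72 to 12.59. In the traces ARG3 peaked in the wild type at 158 min in culture 1 (12.47) and at 166 min in culture 2 (12.63), when the mutant cultures were at 11.31 and 11.50.

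The lysine genes leaned toward the mutant. Over the whole course all 8 had a positive difference, from 0.12 to 0.46 with a median of 0.30, and the cultures did not overlap in 7 of the 8, against 32.4% of all genes in that direction. LYS1 alone passed after adjustment, while 7 of the 8 had an unadjusted p under 0.05, against 15.9% of all genes in that direction. From 206 to 262 min 4 were called, all higher in the mutant, LYS1, LYS9, LYS20 and LYS2, and from 158 to 190 min 5 were called, LYS1, LYS9, LYS4, LYS12 and LYS2.

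LYS1, which encodes the saccharopine dehydrogenase of the last step, had the largest difference of the 46 genes in the last window. It averaged 13.07 and 13.10 in the mutant cultures and 11.73 and 11.64 in the wild-type cultures, a difference of 1.40 ± 0.09, or 2.64-fold (adjusted p 0.000624). Mutant arrays lay between 12.79 and 13.30 and wild-type arrays between 11.59 and 11.76. From 62 to 102 min the means were 12.34 in the mutant and 12.53 in wild-type cells, with a peak of 12.62 at 70 min and 12.64 at 78 min in the mutant cultures, and of 12.64 at 78 min and 12.88 at 86 min in the wild-type cultures. From 110 to 150 min the means were 11.77 in the mutant and 11.56 in wild-type cells. After that LYS1 climbed in the mutant to 13.30 at 262 min, while the wild-type arrays from 182 min on lay between 11.46 and 11.76.

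LYS9, the other saccharopine dehydrogenase, had means of 13.74 in the mutant and 13.04 in wild-type cells from 206 to 262 min (difference 0.70 ± 0.09, adjusted p 0.0041). LYS20 and LYS21 encode isoenzymes of homocitrate synthase, the first step. LYS20 was higher by 0.47 ± 0.09 in that window (adjusted p 0.0134) and LYS21 differed by 0.30 ± 0.11 (0.09). Over the whole course their differences were 0.30 for each (0.0759 and 0.13). The difference between the isoenzymes was not tested. LYS5, which activates the Lys2 enzyme, had the smallest difference of the lysine genes, 0.12 (0.458).

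The histidine and tryptophan genes showed no call before 158 min. From 206 to 262 min 4 of the 6 histidine genes were higher in the mutant, HIS5, HIS7, HIS4 and HIS3, while HIS1 and HIS6 were at -0.16 and -0.23 without passing. HIS5, histidinol-phosphate aminotransferase, averaged 12.33 and 12.09 in the mutant cultures and 11.14 and 11.31 in the wild-type cultures, a difference of 0.99 ± 0.12, or 1.98-fold (adjusted p 0.004). Its mutant arrays ranged from 11.93 to 12.50 and its wild-type arrays from 11.09 to 11.38. HIS7, the amidotransferase and cyclase that joins the pathway to purine synthesis, differed by 0.65 and HIS4, a protein of several activities, by 0.56. HIS3 differed by 0.40 (0.0273). No histidine gene passed over the whole course, where HIS5 had the most positive difference, 0.30 (0.103), and HIS1, the first enzyme, the most negative, -0.07 (0.607).

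Of the 4 tryptophan genes 3 were higher in the mutant from 206 to 262 min. TRP2, anthranilate synthase, averaged 12.94 and 12.95 in the mutant cultures and 12.19 and 12.37 in the wild-type cultures, a difference of 0.66 ± 0.10 (adjusted p 0.00711). TRP5, tryptophan synthase, differed by 0.50 and TRP3, the partner subunit of anthranilate synthase, by 0.46. TRP4, the enzyme of the following step, differed by 0.17 (0.181). Over the whole course TRP2 was at 0.27 (0.0921) and TRP4 at 0.01 (0.952).

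**Figure D2:**
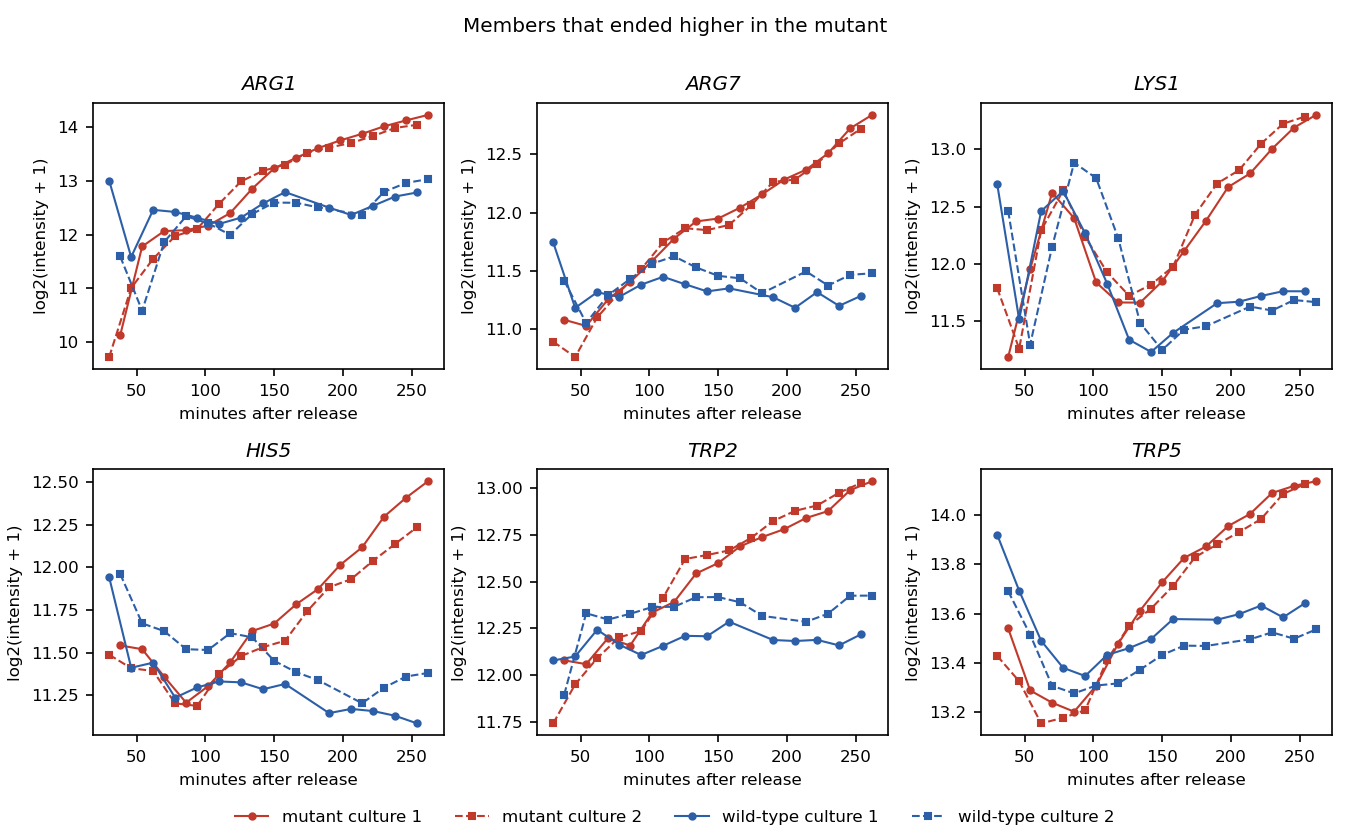
Log2(intensity + 1) against minutes after release for ARG1, ARG7, LYS1, HIS5, TRP2 and TRP5, with a line for each culture (red mutant, blue wild type; circles culture 1, squares culture 2). From 206 min on the mutant lines lie above the wild-type lines in all 6 panels, and in the LYS1 panel both strains share an early peak, at 70 to 86 min.

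The enzymes of the shared aromatic pathway gave no call between strains. None of the 5, ARO1, ARO2, ARO3, ARO4 and ARO7, was called over the whole course or in any window, by limma at an adjusted p under 0.05, and none had an unadjusted p under 0.05 over the whole course. Their level differences ran from -0.05 to 0.09. ARO3 and ARO4 encode isoenzymes of the first step, which phenylalanine inhibits in the case of Aro3 and tyrosine in that of Aro4. ARO3 averaged 12.83 and 12.88 in the mutant cultures and 12.91 and 12.90 in the wild-type cultures (difference -0.05, 95% interval -0.23 to 0.13). ARO4 differed by -0.02 (interval -0.22 to 0.19). In the last window the group's median difference was -0.03.

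Of the 3 genes of aromatic transamination and breakdown, ARO10 and ARO9 were called. ARO10, a decarboxylase of phenylpyruvate and related keto acids, and ARO9, an aminotransferase that starts the breakdown of aromatic amino acids, began at their highest values, dropped in the first hour sampled and climbed again earlier in the mutant. ARO10 was at 13.46 at 30 min in the mutant and at 13.72 at 38 min in the wild type, and the lowest values were 8.89 in the mutant and 8.03 in wild-type cells, each at 86 min and below background. By 142 and 150 min it had reached 10.69 and 10.56 in the mutant cultures, when the wild-type cultures stood at 8.78 and 8.36. The wild-type cultures came to 10.57 at 190 min and 10.02 at 182 min.

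From 110 to 150 min all 6 wild-type arrays of ARO10 lay below background, so the ratio is given as a bound. ARO10 was at least 2.04-fold higher in the mutant, from the mutant mean of 10.09 against the background level (fitted adjusted p 0.00087, measured means 10.09 in the mutant and 8.38 in wild-type cells). From 62 to 102 min it lay below background on 4 of 6 mutant and 5 of 6 wild-type arrays, with the mutant mean at the background level, 9.06, so no size is given for that window (adjusted p 0.0447, but 0.145 with the sampling grid as a block and 0.0574 with a pseudocount of 50). It was also called from 158 to 190 min (0.83, 0.0124) and from 206 to 262 min (0.51, 0.0112). In the last window the arrays overlapped, with 9.85 to 10.24 in the mutant and 9.15 to 9.97 in wild-type cells. In the first window the difference was -1.10 (0.71).

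ARO9 followed a similar course. Its means from 110 to 150 min were 11.34 in the mutant and 10.61 in wild-type cells, a difference of 0.73 ± 0.10 (adjusted p 0.011). That call was lost when either wild-type culture was left out (differences 0.80 without culture 1 and 0.66 without culture 2). ARO9 was called again from 158 to 190 min (0.53) and from 206 to 262 min (0.42). As levels over all times, ARO10 differed by 0.62 (0.00691), with 4 of 30 mutant and 11 of 28 wild-type arrays below background, and ARO9 by 0.35 (0.0418). ARO8, a broad-specificity aminotransferase, differed by -0.06 (0.693) over the course and was called in no window. ARO80, the activator of ARO9 and ARO10, dropped in the same early arrays, with means from 30 to 54 min of 10.74 in the mutant and 10.83 in wild-type cells, and means from 62 to 102 min of 10.03 in the mutant and 10.04 in wild-type cells. It was higher in the mutant only from 206 to 262 min (0.47, 0.0158).

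**Figure D3:**
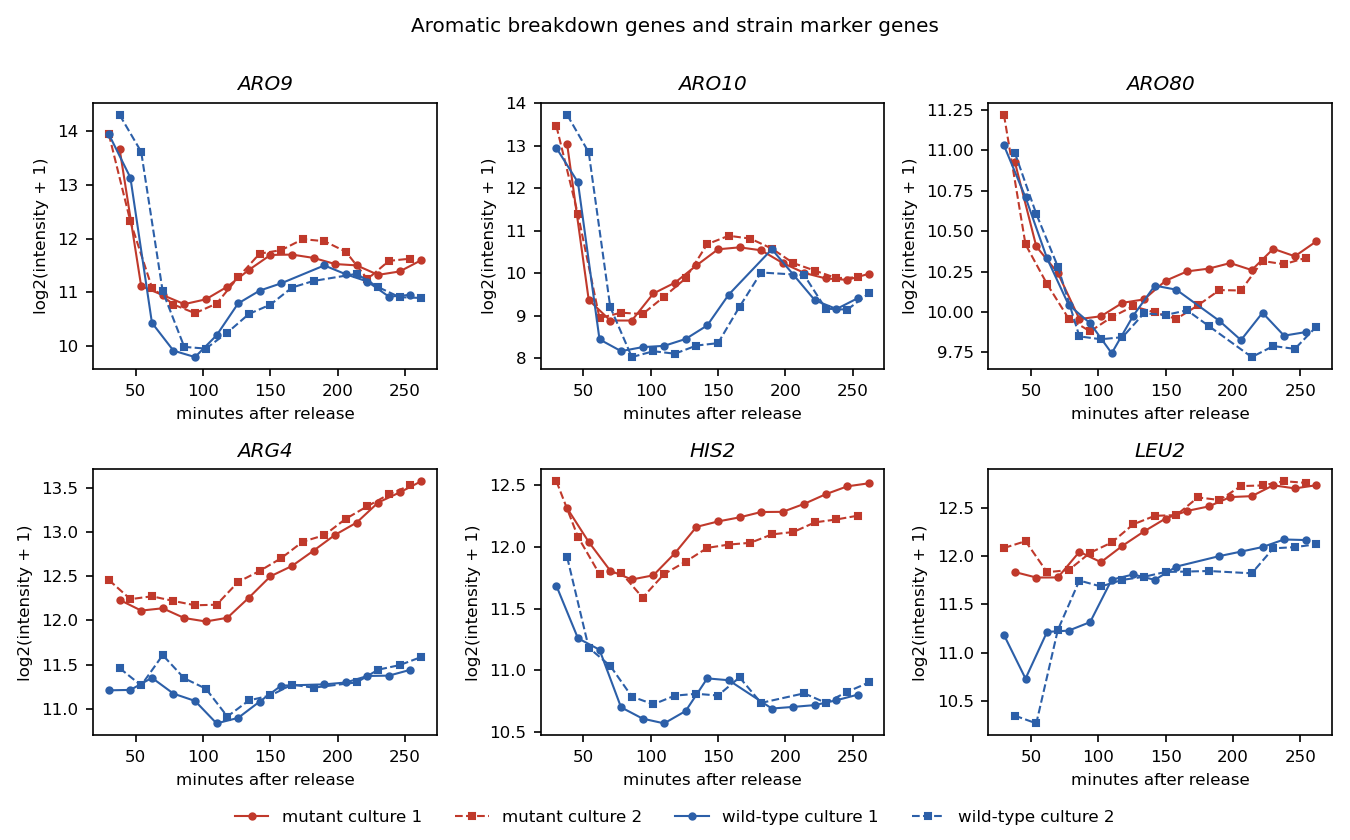
Log2(intensity + 1) against minutes after release for ARO9, ARO10 and ARO80 (top) and the strain marker genes ARG4, HIS2 and LEU2 (bottom), with a line for each culture (red mutant, blue wild type; circles culture 1, squares culture 2). ARO9 and ARO10 start at 12.94 or more in every culture, drop by 86 min and climb again earlier in the mutant, and the mutant lines of the 3 marker genes lie above the wild-type lines at all times.

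The leucine, isoleucine and valine groups gave 5 of the 7 lower calls of the last window, with LEU5, a mitochondrial carrier, among them. All 4 genes of the leucine group, LEU5 included, were lower in the mutant from 206 to 262 min. Over the whole course their median difference was -0.40, and the cultures did not overlap in any of the 4, against 26% of all genes in that direction. LEU1, isopropylmalate isomerase, averaged 12.43 and 12.37 in the mutant cultures and 13.12 and 13.32 in the wild-type cultures over the course, a difference of -0.82 ± 0.09, or 1.77-fold lower in the mutant (adjusted p 0.00286). Its lowest, median and highest values were 11.77, 12.39 and 12.97 over 30 mutant arrays and 12.14, 13.30 and 13.62 over 28 wild-type arrays, so the ranges overlapped. In the last window they did not, with 12.77 to 12.97 in the mutant and 13.15 to 13.53 in wild-type cells. The difference was -1.13 from 62 to 102 min (0.0518), -1.04 from 110 to 150 min (0.00787) and -0.50 from 206 to 262 min (0.0167), as LEU1 climbed in the mutant.

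LEU4 and LEU9 encode isoenzymes of isopropylmalate synthase, the first step of the leucine branch. LEU4 was lower in the mutant at an almost even distance, by 0.43 ± 0.08 over the course (adjusted p 0.0169), and no mutant array, from 12.86 to 13.20, reached the lowest wild-type array, at 13.26. LEU9 differed by -0.15 over the course (0.326), from a difference of 0.50 in the first window (0.71) to -0.50 ± 0.10 in the last (0.0134). Its late arrays lay between 12.26 and 12.58 in the mutant and between 12.83 and 13.05 in the wild type. LEU4 differed by -0.48 in that window. The difference between the isoenzymes was not tested. LEU5, the mitochondrial carrier, was lower by 0.59 in the last window (0.0316).

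Of the 5 isoleucine and valine genes 1 was called in any window. ILV3, dihydroxyacid dehydratase, averaged 13.44 and 13.55 in the mutant cultures and 13.87 and 13.87 in the wild-type cultures from 206 to 262 min, a difference of -0.38 ± 0.09 (adjusted p 0.0286). ILV5, the reductoisomerase, averaged 14.12 and 14.19 in the mutant cultures and 14.16 and 14.16 in the wild-type cultures over the course (difference -0.01, 95% interval -0.19 to 0.18). ILV1, ILV2 and ILV6 differed by 0.01, 0.07 and -0.01.

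**Figure D4:**
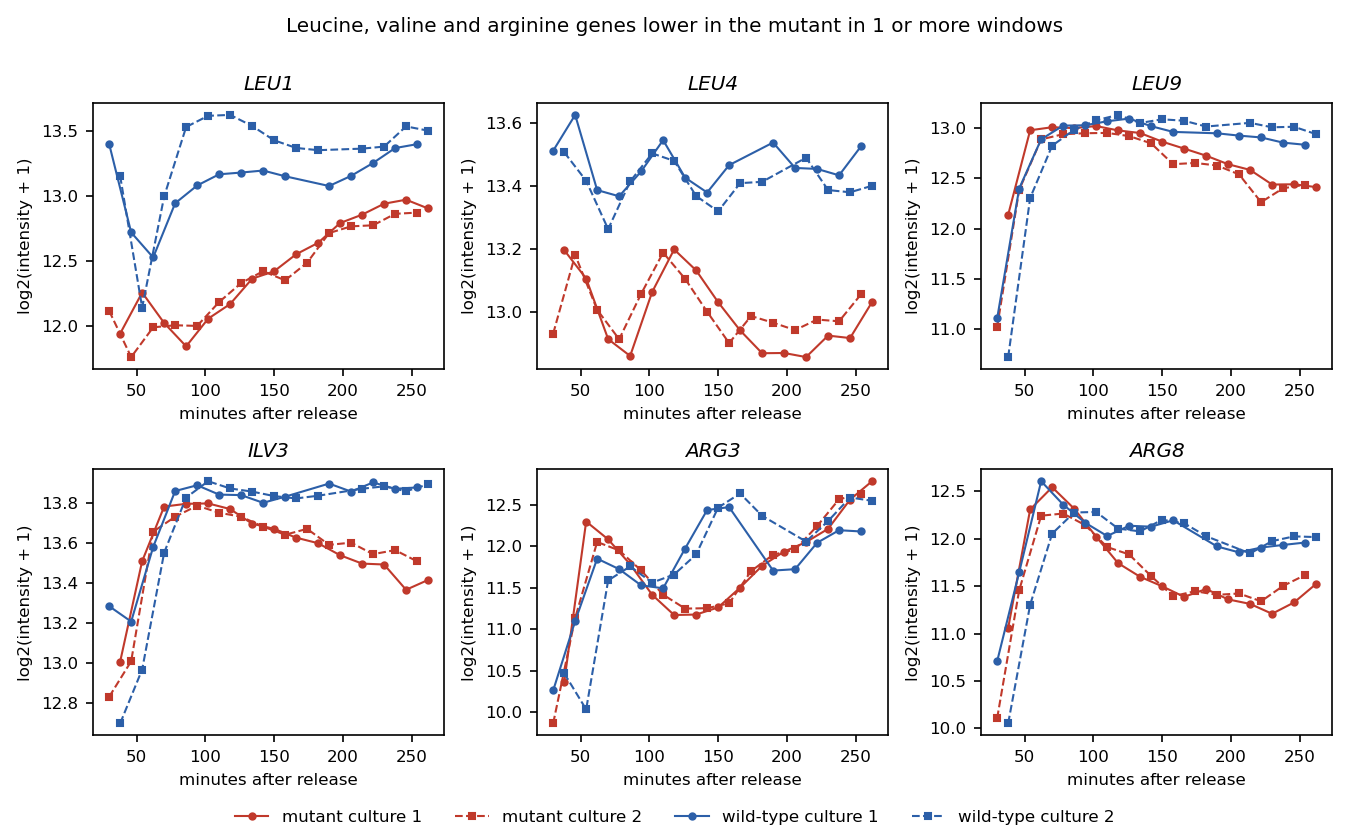
Log2(intensity + 1) against minutes after release for LEU1, LEU4, LEU9, ILV3, ARG3 and ARG8, with a line for each culture (red mutant, blue wild type; circles culture 1, squares culture 2). The mutant lines lie lower throughout for LEU4, from 158 min on for LEU9, ILV3 and ARG8, and between about 126 and 166 min for ARG3.

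Of the regulators, ARG80, ARG82 and ARO80 were called in the last window. ARG80, which with Arg81 and Mcm1 controls arginine genes, was lower in the mutant over the course, with culture means of 9.08 and 9.05 in the mutant and 9.48 and 9.35 in wild-type cells (difference -0.34 ± 0.08, adjusted p 0.0451). It lay near background and below it on 15 mutant arrays and 1 wild-type array. In the last window all 8 mutant arrays were below background, which makes the late value a bound, at least 1.21-fold lower in the mutant (fitted adjusted p 0.00831, measured means 8.67 in the mutant and 9.33 in wild-type cells). ARG82 was higher by 0.57 in that window (0.0216) and ARG81 differed by -0.02 (0.918). LEU3 differed by -0.17 (0.343) and LYS14 by -0.35 (0.0527) in the last window, and by 0.05 and -0.04 over the course.

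GCN4, which is not among the 46 and was examined as the general activator, had a mean of 14.11 in the mutant and 14.26 in wild-type cells over the course. Its difference was -0.15 (adjusted p 0.243, but 0.000414 in the fit over arrays with culture as a random block; 95% interval -0.33 to 0.03), and -0.24 from 206 to 262 min (0.0827, interval -0.45 to -0.02). The control of GCN4 acts mainly on translation, which arrays do not measure.

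The strain marker genes ARG4 and HIS2 had larger level differences than any of the 46 genes. ARG4, argininosuccinate lyase, averaged 12.58 and 12.69 in the mutant cultures and 11.20 and 11.31 in the wild-type cultures over the course, a difference of 1.38 ± 0.09, or 2.59-fold (adjusted p 0.000218). HIS2, histidinol phosphatase, differed by 1.19 (0.0004) and LEU2, isopropylmalate dehydrogenase, by 0.67 (0.00316). In ARG4 the lowest of 30 mutant arrays, 11.99, lay above the highest of 28 wild-type arrays, 11.61. HIS2 ranges overlapped, with 11.59 to 12.53 in the mutant and 10.57 to 11.91 in wild-type cells, and so did LEU2 ranges, with 11.78 to 12.77 in the mutant and 10.27 to 12.17 in wild-type cells. Each of the 3 stands in the mutant's genotype as an inserted copy, LEU2 both in the CLB2 disruption and in GAL1-CLB1:LEU2. Signal from an inserted copy and from the resident gene cannot be told apart. The mutant carries these copies, and TRP1, together with the loss of the cyclin genes. For the leucine, histidine, arginine and tryptophan pathways, a part of the inserted genes and a part of the cyclins therefore cannot be told apart.

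ARG4 is also the step that follows ARG1, and the differences of both were largest in the last window. That of ARG4 was 0.97 from 30 to 54 min (adjusted p 0.279), 0.84 from 62 to 102 min, 1.33 from 110 to 150 min, 1.51 from 158 to 190 min and 1.95 ± 0.09 from 206 to 262 min (adjusted p 0.000243 in the last). ARG1 had -1.04, -0.28, 0.53, 0.90 and 1.29 in those windows, so in the first the genes differed in sign. From 62 to 102 min ARG4 was called by limma (adjusted p 0.0291), but not under quantile normalization (0.0559) or with the sampling grid as a block (0.19). LEU2 lies in the pathway of LEU1 and LEU4, whose differences had the opposite sign.

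Change over time was tested within each strain, from the window means of its 2 cultures. In the mutant 44 of the 46 genes changed, against 76% of all genes, 34 with the last window above the first (37.3% of all genes) and 10 with it below (38.6%). In the wild type 35 changed, against 69.1% of all genes, 23 above (32.4% of all genes) and 12 below (36.7%). The 2 that did not pass in the mutant were LEU5 and ARO3. Among the 11 that did not pass in the wild type were ARG7, ARG2, TRP2, HIS3, HIS4 and LEU1. The largest gain was that of ARG1 in the mutant, 3.33 between the first and last windows, against 1.01 in the wild type. ARG7 gained 1.62 in the mutant and 0.00 in wild-type cells, and TRP2 gained 0.98 in the mutant and 0.18 in wild-type cells. LYS1 changed by 1.54 in the mutant and by -0.31 in the wild type, and HIS5 changed by 0.72 in the mutant and by -0.52 in the wild type. ARO10 changed by -1.83 in the mutant and by -3.45 in the wild type between the same windows. The wild-type count was 23 from culture 2 alone and 14 from culture 1 alone.

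Whether the course differed between strains was tested with the interaction of strain and window, over 20 culture and window means. The course of 24 of the 46 genes differed, which is 52.2% against 38% of all genes, 19 with a last-minus-first change that was more positive in the mutant (21.9% of all genes) and 5 with a more negative one (16%). HIS5 had the smallest p, with a difference of changes of 1.24 ± 0.08 (adjusted p 1.16e-05), followed by LYS1 at 1.84 ± 0.13 (1.65e-05) and TRP5 at 0.81 ± 0.07. The 5 negative ones were LEU9, LYS14, HIS1, LEU3 and ARG3. Leaving out wild-type culture 1 gave 9, wild-type culture 2 gave 10 and mutant culture 1 gave 13. Since the arrays before 62 min stood apart from the rest, the test was also made without them, when 29 were called.

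Periodicity was tested with a cosine and a sine term over the arrays of each strain, at the period that best described 26 genes of the G1 to S transition, 136 min in the mutant and 103 min in the wild type. 6 of the 46 genes were called in the mutant, against 7.62% of all genes, with at least 1.5-fold from peak to trough, and 2 in the wild type, against 11.6% of all genes. In the mutant these were ARO10, ARO9, ARG3, LYS1, LYS9 and ARG8, with fitted peak-to-trough differences of 2.09 for ARO10, with 4 of 30 arrays below background, and 0.81 for LYS1. In the wild type they were LYS4, at 1.01, and LYS2, at 0.67. Without the arrays before 62 min 4 were called in the mutant and 0 in wild-type cells, and with a single culture of the strain the counts were 0 or 1 in the mutant and 0 in wild-type cells. Arrays of a culture form a time series and are not independent, so the p-values of this test may be too small.

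Other genes of amino acid metabolism were examined as lists beside the 46. Among 28 further biosynthesis genes, 5 were higher in the mutant and 2 lower from 206 to 262 min, against 32.9% of all genes called in that window, with SER3, the first enzyme of serine synthesis, at 1.37, TYR1, prephenate dehydrogenase, at 0.58 and GLT1, glutamate synthase, at -0.70. With 18.3% of all genes higher and 14.6% lower in that window as the background, the other lists were as follows. Of 20 regulators of general and nitrogen control 5 were lower, among them GAT1, an activator of nitrogen genes, at -1.13, MCM1 at -0.64 and UME6, a repressor, at -0.45. Of 13 amino acid breakdown genes 6 were higher and 1 lower, with GAD1, glutamate decarboxylase, at 1.60 and UGA1, an aminotransferase of the same route, at 1.16. Of 18 amino acid permeases 1 was higher and 8 were lower, with PUT4, the proline permease, at -1.26, AGP1 at -0.89 and TAT1 at -0.85. Of 15 purine synthesis genes, which share precursors and regulation with histidine synthesis, 6 were higher. The median difference of that list was 0.21, and ADE1 had the largest, 1.63.

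Stress genes and mating genes differed in the same window. Among 22 stress genes, 20 were higher in the mutant and 1 lower from 206 to 262 min, against 18.3% of all genes higher and 14.6% lower, with a median difference of 1.35 and a range from -2.43 to 2.71. Of 7 a-specific genes 6 were lower and BAR1 was higher, with a median of -1.52, and of the 4 alpha-specific genes STE3 was at 0.43 and MF(ALPHA)1 at -0.68, both called, with STE3 means below background in both strains. Their part in the differences of the amino acid genes was not tested.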

How the data were processed

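Total RNA of 58 yeast samples (30 mutant, 28 wild type) was measured on Affymetrix arrays. The authors deposited linear probe set intensity values, made with affy 1.8.1 per the submitters' processing notes. Background correction, summary and scaling are not given in the sources used here. The number of cultures, 2 per strain, limits the precision of the comparisons between strains. The table holds 10928 probe sets, of which 7245 have an entry in the platform's name table and 5498 name 5449 genes of the R64 annotation. The brightest probe set stood for a gene. Probe sequences and coordinates were not used here.

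Values were taken as log2(intensity + 1). Culture means over 56 arrays at times both strains had (2 mutant arrays were left out) were compared in limma 3.58.1 (R 4.3.3) over all genes, for the whole course and for 5 windows (30 to 54, 62 to 102, 110 to 150, 158 to 190 and 206 to 262 min). Change over time and its interaction with strain were fitted on 20 culture and window means with culture as a term, and periodicity over arrays. Calls required a Benjamini-Hochberg adjusted p under 0.05. Alternatives were quantile normalization, a pseudocount of 50, other filters and probe set rules, splines 4.3.3, blocks and left-out cultures. The tests of level, last window, interaction, change over time in the mutant and periodicity were also run on simulated data. Apart from a culture effect, the simulated noise was independent between arrays.

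The members and lists were chosen with earlier results of these data known. Called genes up to a fixed number per comparison, pathway extremes, isoenzyme pairs and regulators were named by a rule, and other members were added so that each pathway was covered.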

Additional observations from a re-analysis of the deposited data

Results flagged for a closer look

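In 24 of the 46 genes, against 38% of all genes, and in 2 of the 3 strain marker genes the change from the first window (30 to 54 min) to the last (206 to 262 min) differed between mutant and wild type by the test of the interaction over all windows (limma, adjusted p under 0.05). The values are mutant change minus wild-type change on the log2 scale. Among the arginine genes they were 2.32 for ARG1, 1.62 for ARG7, 0.82 for ARG2 and -0.28 for ARG3. The histidine genes had 1.24 for HIS5, 0.73 for HIS7, 0.49 for HIS4, 0.38 for HIS3 and -0.55 for HIS1. The lysine genes had 1.84 for LYS1, 1.04 for LYS9 and 0.39 for LYS20. The tryptophan genes had 0.81 for both TRP2 and TRP5, 0.57 for TRP3 and 0.49 for TRP4. The aromatic breakdown genes had 1.61 for ARO10, 1.41 for ARO9 and 0.43 for ARO8, and LEU9 had -0.997. The regulators had 0.56 for ARO80, 0.52 for ARG82, -0.50 for LEU3 and -0.73 for LYS14. The strain marker genes ARG4 and HIS2 had 0.97 and 0.81. For ARG3 the value is smaller than its SE of 0.33, and the test covers all 5 windows.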

How the results depend on the processing

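Of the recomputed values of single genes 693 kept their direction and side of the threshold, 55 lost and 15 gained a call, and 13 changed sign. Quantile normalization, a pseudocount of 50, dim genes left out and the mean of probe sets kept all counts of called members within 1.5 times. Leaving out a culture did not. The count ran from 3 to 17 for level, from 0 to 3 at 62 to 102 min, from 2 to 11 at 110 to 150 min, from 8 to 22 at 158 to 190 min, from 4 to 30 at 206 to 262 min, from 14 to 35 for change over time in the wild type, from 9 to 23 for the interaction, and from 0 to 1 and 0 to 0 for periodicity in the mutant and the wild type. Such a fit has fewer samples. A lone culture was assumed to vary like those of the other strain. Without the arrays before 62 min 15 were called in level and 0 as periodic in the wild type. With the sampling grid as a block 5 were called in level and 0 at 62 to 102 min, with culture as a random block over arrays 13 in level, and with a spline of time 38 in the interaction. With a replicate block the counts were 10 for level, against 8 without it, and 0, 1, 5, 18 and 25 in the windows, against 0, 1, 5, 20 and 25. From 62 to 102 min the call of ARO10 was lost under that block (adjusted p 0.0721) and LEU1 was called instead (0.0271). Cultures of the same number did not deviate together (correlation -0.06 over the whole course and -0.22 from 30 to 54 min). They were sampled on opposite grids, so this cannot decide whether the numbers pair the samples. TRP4 had a level difference of -0.013 by quantile normalization. When a culture was left out, the level difference crossed 0 for TRP4 (-0.0336 to 0.0552), ILV2 (-0.0243 to 0.162), ARO4 (-0.0792 to 0.0436), LYS14 (-0.171 to 0.0815), LEU3 (-0.0907 to 0.195) and ARG81 (-0.00961 to 0.225). Without the arrays before 62 min, change over time was counted from the window of 62 to 102 min. In the wild type it was then 0.90 for ARO9, 1.08 for ARO10 and -0.0808 for LYS20. Counted from 30 to 54 min it was -2.67, -3.45 and 0.51, so these changes of sign compare different windows. The cause of the other changes of sign was not tested. Signal near background limits ARG80, ARG81 and ARO10.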

Other observations

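Over the whole course 2 of 28 further biosynthesis genes, 1 of 13 breakdown genes, 1 of 15 purine genes and 2 of 20 regulators differed between the strains, each a smaller share than the 10.8% of all genes called. BAT1, a branched-chain aminotransferase, was at -0.53 and TYR1 at 0.34, and CHA1, a serine and threonine deaminase, was at 0.35. Of 18 permeases 5 were lower in the mutant by limma, against 5.07% of all genes, with PUT4 at -0.69, BAP2, a branched-chain amino acid permease, at -0.60 and TAT1 at -0.55. ADE1 was the called purine gene, at 1.16, while the median difference of the 15 purine genes was 0.01. Of the regulators, GAT1 was at -0.81 and MCM1 at -0.38.

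The array also holds 26 probe sets whose lower-case symbols match the same name pattern but whose genes lie outside the budding yeast annotation. Their mean values ran from 7.72 to 9.22 with a median of 8.23, and 24 lay below background.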
